A study of Mus musculus with 16 samples.

Results

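The 10 transcription factor genes described here steer blood progenitors toward granulocytes or toward monocytes, and they were followed from stem cells of the BM to mature myeloid cells of BM and tumor. They were chosen by symbol, as Cebpa, Cebpb, Cebpd, Cebpe, Gfi1, Spi1, Irf8, Klf4, Zeb2 and Runx1, which are 10 of the 32285 genes counted in the 16 matrices of the study. All 10 had UMIs (unique molecular identifiers, each standing for 1 captured RNA molecule) in all 16 matrices, although Gfi1 had only 1 to 9 UMIs and Cebpe 37 to 64 UMIs in a whole tumor library.

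RNA of single cells was counted in 12 BM libraries and 4 tumor libraries, where a library is 1 deposited sample. The study tagged cell suspensions with barcoding oligos and assigned cells to samples by tag. Whether samples of a sort shared 1 capture is not stated in the sources used here. Of the BM libraries, 6 held lineage-negative c-Kit+ CD45+ cells (hematopoietic stem and progenitor cells, HSPCs) and 6 held CD45+ Ter119- cells, with 2 replicate libraries each from BALB/c mice that were non–tumor-bearing and untreated (WT, called controls in the labels), that bore 2208L tumors and received vehicle, and that bore 2208L tumors and received IACS-70654. The 2208L line is a transplanted Trp53-null mammary tumor model of triple-negative breast cancer, placed in the mammary fat pad of mice aged 7 to 8 weeks, and IACS-70654 blocks the bromodomain of the acetyltransferases CBP and P300 and was given by mouth with 3 days on and 2 days off. The tumor libraries came from mice given vehicle, IACS-70654, an anti–PD-1 antibody or the combination for 7 days, with 1 library per condition. Treatment of the tumor-bearing BM groups lasted 7 or 6 days, depending on the source. Each library pooled 3 mice, and nothing states whether replicate libraries came from separate mice, so p-values measure only the spread between libraries. All tumor-bearing groups carried the same transplant line.

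These factors form a linked circuit. C/EBPα (Cebpa) opens the granulocyte and monocyte path from multipotent cells, PU.1 (Spi1) is needed by both branches, and RUNX1 acts earlier, in stem and progenitor cells. GFI1 and C/EBPε (Cebpe) drive granulocyte maturation and GFI1 represses monocyte genes, whereas IRF8 and KLF4 drive monocyte and dendritic cell fate, IRF8 restrains granulocyte output, and ZEB2 is a zinc finger repressor best known from monocytes, dendritic cells and the epithelial-mesenchymal transition. C/EBPβ (Cebpb) is the C/EBP factor of emergency, cytokine-driven granulopoiesis, and C/EBPδ (Cebpd) accompanies late myeloid maturation.

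The promoters of Zeb2, Irf8, Klf4 and Cebpb, 4 members with called changes below, are shown so that the regulatory sequence can be read beside the values. Gfi1 and Cebpa also had called changes. Gfi1 was left out because its window overlaps another gene, and the Cebpa window is not shown either. Each is the 250 bases before a RefSeq transcription start in GRCm38.p6, written 5′ to 3′ on the gene's own strand, and none overlaps an annotated UTR. Capitals mark letters of a CREB core site (TGACG, to which the CREB partner of CBP binds), an ETS or PU.1 core (GAGGAA) or a C/EBP core (TTGCNNAA), each searched on both strands, so that CGTCA is TGACG read on the opposite strand. The Zeb2 window lies at chr2:45117443-45117692 on the minus strand, before the RefSeq start farthest upstream, the Irf8 window at chr8:120736108-120736357 on the plus strand, the Klf4 window at chr4:55532476-55532725 on the minus strand and the Cebpb window at chr2:167688665-167688914 on the plus strand.
Zeb2: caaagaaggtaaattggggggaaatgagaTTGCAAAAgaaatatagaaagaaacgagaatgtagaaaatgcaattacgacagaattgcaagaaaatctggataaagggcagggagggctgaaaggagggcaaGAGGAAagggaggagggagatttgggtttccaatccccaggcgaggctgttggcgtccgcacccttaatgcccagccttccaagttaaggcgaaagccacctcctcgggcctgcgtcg
Irf8: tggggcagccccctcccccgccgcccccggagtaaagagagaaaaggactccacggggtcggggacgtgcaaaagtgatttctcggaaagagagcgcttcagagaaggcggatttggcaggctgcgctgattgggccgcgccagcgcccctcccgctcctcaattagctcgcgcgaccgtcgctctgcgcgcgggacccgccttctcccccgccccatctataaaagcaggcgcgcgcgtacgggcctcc
Klf4: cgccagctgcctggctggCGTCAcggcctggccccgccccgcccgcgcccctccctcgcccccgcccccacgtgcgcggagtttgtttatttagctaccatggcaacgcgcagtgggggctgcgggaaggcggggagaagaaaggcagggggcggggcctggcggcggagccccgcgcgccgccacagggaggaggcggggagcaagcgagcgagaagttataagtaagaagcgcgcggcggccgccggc
Cebpb: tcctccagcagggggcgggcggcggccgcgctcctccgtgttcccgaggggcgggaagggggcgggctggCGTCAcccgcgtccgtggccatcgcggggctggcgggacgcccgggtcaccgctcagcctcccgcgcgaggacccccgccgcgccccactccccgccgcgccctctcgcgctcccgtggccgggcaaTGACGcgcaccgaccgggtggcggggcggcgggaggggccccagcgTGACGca
The Cebpb window held 3 CREB core sites, the Klf4 window 1, the Zeb2 window 1 C/EBP core and 1 ETS core, and the Irf8 window none of these letters. Of the 4 Zeb2 windows in the table, 2 overlapping ones farther downstream, not shown, held a CREB core site and no C/EBP core. The KLF or SP core (GGGCGG, left in lower case) occurred 5 times in the Cebpb window, 4 times in the Klf4 window and 2 times in the Irf8 window. Of all 32851 promoter windows of this length, 17.8% held TGACG, 23.3% GAGGAA, 9.56% TTGCNNAA and 32.7% GGGCGG, so these matches are frequent letters and only describe the sequence. A RUNX core (TGTGGT) was in 14.05% of all windows and in 0 of the 13 windows found for 7 members, and the promoters of Spi1, Cebpd and Cebpe were not used here.

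Cells were sorted into classes by clustering and by marker genes, and each class is called by the cell type its markers resemble. In the HSPC sort these were HSC-like cells (94 to 236 per library), multipotent progenitor (MPP)-like cells (309 to 1795), granulocyte-monocyte progenitor (GMP)-like cells rich in azurophil granule RNA (228 to 1545) and monocyte progenitor-like cells (414 to 1498). HSPC clusters named by azurophil granule or by neutrophil progenitor markers were both placed in the GMP-like class. Before thinning, a Cebpe UMI was in 71.1% to 79.5% of its cells (group means), so the name does not mean that both fates were open. In the CD45+ sort the classes were GMP-like precursors (102 to 461), cycling preNeu-like cells (390 to 719), immature neutrophil-like cells (718 to 2083), mature neutrophil-like cells (1279 to 2788), an Il1b-rich neutrophil-like class (65 to 444) and monocyte-like cells (277 to 658). The libraries held 27427163 to 68415534 UMIs in the HSPC sort, 27816638 to 54510172 in the CD45+ sort and 15590289 to 43594797 in tumors. No cell barcode was shared within a sort, against up to 17 (median 6) between libraries of different sorts. Neutrophil-like cells separated by group before any test. Of 1 immature cluster led by Stfa3 and another led by Prg2, 93.6% and 94.2% of cells came from IACS-70654 libraries, and so did 95.9% of a mature cluster led by Ifitm1, whereas a mature cluster led by Acod1 was 88.1% vehicle. A difference within these classes is therefore also a difference between such clusters, and values within single clusters that could be tested are given beside the calls they change. Unnamed HSPC clusters were left out, and they included 1 of 1447 cells (72.4% IACS-70654) and 1 of 1138 cells (70.7% WT). Levels are UMIs of the gene scaled to all UMIs of the class in the usual unit of depth-scaled counts (CPM), read at 3′ ends, so they are compared for 1 gene between classes and never between genes.

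The granulocyte factors Gfi1 and Cebpe peaked in neighboring classes of the neutrophil path, and 5 of the 10 members had their highest level in a neutrophil class, where highest and lowest here and below refer to the 10 classes of this path. Cebpe (ENSMUSG00000052435), which encodes C/EBPε, a factor needed for secondary granules, had a mean of 6.14 CPM in HSC-like cells, 177 in HSPC GMP-like cells and 381 in CD45+ GMP-like cells, was highest in preNeu-like cells at 656 (range over 6 libraries 637 to 675), and was lower in immature (370), mature (66.6) and Il1b-rich neutrophil-like cells (44.4). Its highest mean was 107 times its lowest, that of HSC-like cells, where single libraries had 0 to 10.9 CPM. Gfi1 peaked a step earlier, at 96.3 CPM (79.0 to 120) in CD45+ GMP-like cells, after 54.6 in HSPC GMP-like cells and before 35.8 in preNeu-like and 10.9 in immature neutrophil-like cells, and it was near 3 CPM in mature neutrophil-like cells (3.55) and monocyte-like cells (2.86). The ranges of these last classes overlapped, so Gfi1 levels there could not be ordered.

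Cebpd, Cebpb and Spi1 rose toward the end of the path instead. Cebpd had a mean of 13.1 CPM in HSC-like cells, 75.0 in HSPC GMP-like cells, 350 in preNeu-like cells, 601 in mature and 792 in Il1b-rich neutrophil-like cells, and 220 in monocyte-like cells. Cebpb was lowest in MPP-like cells (44.0 CPM), stayed between 184 and 222 CPM from CD45+ GMP-like to immature neutrophil-like cells, with overlapping ranges, and then reached 832 in mature and 1684 CPM in Il1b-rich cells, without overlap. In WT libraries alone Cebpb fell from 182 CPM in CD45+ GMP-like to 170 in preNeu-like and 116 in immature cells, without overlap. Spi1 climbed in smaller steps, from 93.8 CPM in HSC-like cells to 419 in immature, 587 in mature and 712 CPM in Il1b-rich neutrophil-like cells, a highest mean 7.59 times the lowest, against 38.3 times for Cebpb and 60.3 times for Cebpd.

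The monocyte factors were low in the middle of the neutrophil path. Of these 10 classes, Irf8 had its highest mean in monocyte progenitor-like cells (412 CPM, 348 to 463) and was next highest in monocyte-like cells (313), with overlapping ranges, against 67.1 in MPP-like cells, 29.1 in HSPC GMP-like cells and 3.29 in preNeu-like cells, a highest mean 125 times the lowest. Klf4 was highest in monocyte-like cells (191 CPM), and was 26.7 CPM in HSC-like cells, 2.35 in immature and 19.3 in Il1b-rich neutrophil-like cells. Zeb2 fell from 562 CPM in MPP-like cells to 27.0 in preNeu-like and 39.6 in immature neutrophil-like cells, returned to 283 in mature and 675 in Il1b-rich neutrophil-like cells, and was highest in monocyte-like cells at 1607 CPM. These means pool all groups, treated libraries included. In WT libraries alone Zeb2 was 19.3 CPM in preNeu-like and 21.9 in immature cells, with overlap, 191 in mature and 570 in Il1b-rich cells. The path therefore passed through a low of Zeb2 at the preNeu-like and immature stages, where Cebpe was high. Irf8 and Klf4 were low there too, but their ranges in immature cells overlapped those in mature neutrophil-like cells (means 5.49 and 4.77 CPM). Klf4 was already 2.98 CPM in HSPC GMP-like cells.

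Runx1 was highest in the early part, whereas Cebpa rose early but was highest in monocyte-like cells. Cebpa rose from 6.50 CPM in HSC-like to 31.9 in MPP-like and 35.9 in HSPC GMP-like cells and fell to 6.96 in preNeu-like cells. It was 14.6 CPM in mature and 16.2 in Il1b-rich neutrophil-like cells (32.2 in the latter in WT libraries alone, with only 65 and 77 cells). Among the 10 classes it was highest in monocyte-like cells (48.9), and 7 of its 9 neighboring pairs in the order of levels overlapped. Over the 10 classes Runx1 varied least among the members, from 880 CPM in MPP-like and 802 in HSC-like cells, which overlapped, to 216 CPM in mature neutrophil-like cells, a highest mean 4.07 times the lowest. In WT libraries alone, each of the 10 members had its highest mean in the same class.

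**Figure D1:**
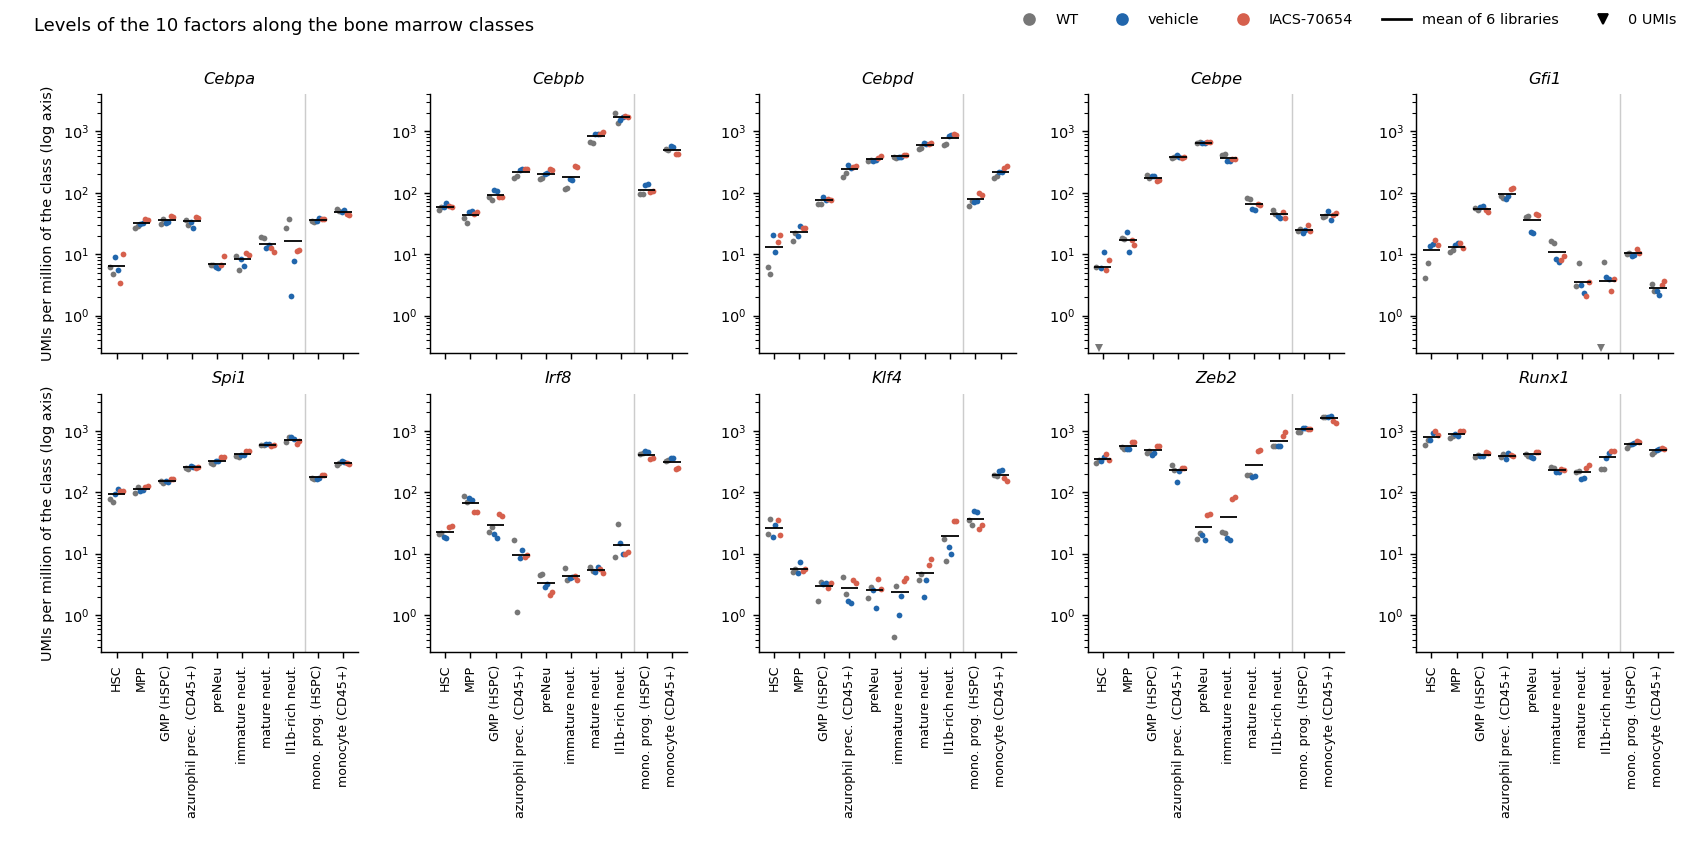
Level of each of the 10 members (CPM, log scale) in the 10 BM classes from HSC-like to mature cells, with 1 point per library in the color of its group, a line at the mean of 6 libraries and triangles for libraries with 0 UMIs. Cebpe peaks in preNeu-like cells at 637 to 675 CPM, and Irf8 peaks in monocyte progenitor-like cells at 348 to 463 CPM.

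Members lie at chr7:35119293-35121928 (Cebpa), chr2:167688915-167690418 (Cebpb), chr16:15887286-15891031 (Cebpd), chr14:54710360-54712174 (Cebpe), chr5:107716657-107726036 (Gfi1), chr2:91082390-91115756 (Spi1), chr8:120736358-120756694 (Irf8), chr4:55527143-55532466 (Klf4), chr2:44983632-45117395 (Zeb2) and chr16:92601466-92826149 (Runx1) in GRCm38. Zeb2 spans 133764 bases and Runx1 224684 bases, and whether intronic reads were counted is not given in the sources used here, so UMIs of these long genes may include unspliced RNA. Zeb2 overlaps 5 annotated genes, 4 of them antisense, and the kit keeps the strand of the RNA.

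Over the 131 sums of 1 class in 1 library, from 23 classes, the genes whose log2 level ran most like a member included Fgd4 for Spi1 (Pearson's r = 0.91), Nfam1 for Cebpb (0.89), Hp (haptoglobin) and Msrb1 for Cebpd (both 0.94), Dstn (0.87) and Aff2 (0.85) for Cebpe, and Vcam1 (0.69) and Tmx4 (0.66) for Gfi1. Irf8 ran most like Ly86 (0.86) and Il6st (0.85), Klf4 like Pld4 (0.76) and Irf5 (0.74), Zeb2 like Slc4a7 (0.81) and Maml3 (0.79), Runx1 like Rnf2 (0.81) and Rps6ka5 (0.80), and Cebpa like Gng12 (0.75) and Ccl9 (0.70). These sums share libraries and depth, and 10068 genes were compared, so the values only describe the patterns.

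In HSPCs 1 member differed between vehicle-treated tumor-bearing mice and WT mice past the thresholds, which were set at 0.01 for the adjusted p of edgeR's quasi-likelihood test and at 0.5 for the size of the log2 change, with p adjusted over all tested genes of the class by the Benjamini-Hochberg method. This comparison asks how progenitors differ in tumor-bearing mice, and since the WT mice got no vehicle, the tumor and the repeated vehicle doses cannot be told apart in it. "With the tumor" below means vehicle against WT in this sense. Klf4 in monocyte progenitor-like cells was 36.6 and 29.6 CPM in WT, 50.2 and 47.5 CPM in vehicle and 24.8 and 28.5 CPM in IACS-70654 libraries (here and below scaled by TMM factors). Both vehicle libraries lay above both WT libraries and both IACS-70654 libraries below them. Klf4 rose with the tumor by 0.55 ± 0.09 (log2, SE, adjusted p = 3.38e-06 by edgeR) and fell with IACS-70654 by 0.92 on the log2 scale (SE 0.08, adjusted p = 7.76e-13). The rise with the tumor was not called without the WT replicate 2 library (0.43 ± 0.10), nor after centering of libraries before clustering or thinning of cells. The share of all tested genes called in this comparison was 1.09% in monocyte progenitor-like cells, 1.43% in GMP-like cells, 0.746% in MPP-like cells and 0.520% in HSC-like cells. Cebpb passed the test on p but not on size in GMP-like cells (0.43 ± 0.07) and in monocyte progenitor-like cells (0.47 ± 0.05). In alternatives it was called in GMP-like cells after centering and after thinning. In monocyte progenitor-like cells it was called with total UMIs, with doublets left out and after thinning.

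IACS-70654 changed Irf8 in opposite directions along the HSPC path. It was lower in MPP-like cells and higher in GMP-like cells of treated mice. In MPP-like cells Irf8 was 87.3 and 71.2 CPM in WT, 78.6 and 73.8 CPM in vehicle, and 46.2 and 46.5 CPM in IACS-70654 libraries, so that both treated libraries lay below all others. The log2 change from vehicle was -0.73 ± 0.08 (SE, adjusted p = 2.58e-11 by edgeR). In GMP-like cells Irf8 was 22.8 and 27.9 CPM in WT, 21.1 and 18.2 CPM in vehicle, and 43.4 and 40.4 CPM in IACS-70654 libraries, and again the treated libraries stood apart. It rose by 1.06 ± 0.08 (adjusted p = 6.29e-16 by edgeR). In monocyte progenitor-like cells Irf8 was 463 and 453 CPM with vehicle and 339.5 and 351 CPM with IACS-70654, a log2 change of -0.42 ± 0.03 that passed on p (adjusted p = 2.31e-14 by edgeR) but not on size.

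With Klf4 in monocyte progenitor-like cells, these made 3 called pairs of member and class under IACS-70654, and the share of all genes called was 1.03% in HSC-like, 5.29% in MPP-like, 6.91% in GMP-like and 6.08% in monocyte progenitor-like cells. In HSC-like cells, where 7 members were tested, none was called in either comparison. Both Irf8 calls were lost with no upper limit on genes per cell, at 0.44 in GMP-like and -0.45 in MPP-like cells. The GMP-like class was made of 3 clusters, led by S100a9 (62.0% vehicle), by Hdac9 and Cebpe (64.1% IACS-70654) and by S100a8 and Alas1. Within them the Irf8 change was between 0.38 and 0.81, with a call in 2 of 3, and within 3 clusters of MPP-like cells it was between -1.15 and -0.37, with a call in 2 of 3. Klf4 in the 2 clusters of monocyte progenitor-like cells was called in 1 for vehicle against WT (0.46 and 0.62) and in both for IACS-70654 against vehicle.

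Marker lists of other cells were summed in the same classes. In MPP-like cells the sum of 8 HSC markers went from 1508–1612 CPM with vehicle to 778–858 CPM with IACS-70654, with 1 of 5 tested genes lower and 0 higher, and that of 10 monocyte markers from 167–172 to 151–156 CPM, with 1 of 7 tested genes higher and 2 lower. In GMP-like cells the monocyte sum was 168 to 174 CPM with vehicle and 185 to 203 CPM with IACS-70654, with 2 of 7 tested genes higher and 1 lower, and that of 9 neutrophil progenitor markers went from 1698–2013 to 5518–6246 CPM, with 3 of 8 higher and 1 lower. In monocyte progenitor-like cells the monocyte sum went from 2079–2088 to 1575–1607 CPM, with 5 of 9 tested genes lower, and the neutrophil progenitor sum from 189–199 to 954–992 CPM. Their part in the member changes was not tested.

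The other members moved less in HSPCs. In GMP-like cells of treated mice Zeb2 changed by 0.41 ± 0.03, Cebpa by 0.28 ± 0.07, Cebpb by -0.43 ± 0.05, Cebpe by -0.32 ± 0.04 and Gfi1 by -0.29 ± 0.06, all past the p threshold in edgeR and all under the size threshold. Klf4 changed by -0.15 ± 0.25 there, with an adjusted p of 0.692 by edgeR. Cebpd changed by 0.41 ± 0.06 in monocyte progenitor-like cells (adjusted p = 1.63e-07 by edgeR).

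The same difference was read as a share of cells. After each HSPC was thinned to 3000 UMIs, an Irf8 UMI was found in 4.74% and 5.70% of GMP-like cells in the vehicle libraries, in 6.40% and 7.11% in WT and in 10.8% and 11.5% in IACS-70654 libraries, with 70, 10 and 36 cells left out as too shallow. Erythroid-like cells served as a reference, with mean shares of 5.16% with vehicle, 4.13% in WT and 4.07% with IACS-70654. The mean share was 5.25% with vehicle and 4.69% with IACS-70654 in HSC-like cells, and 5.83% and 4.19% in megakaryocyte progenitor-like cells. The vehicle share in GMP-like cells was thus near that of these classes and the IACS-70654 share above theirs. Ambient RNA was not measured, so whether these low shares are background was not tested. Before thinning, the mean shares in GMP-like cells were 13.95% with vehicle, 18.1% in WT and 25.9% with IACS-70654, at median depths of 9591 to 11183 UMIs, against 12433 to 13614 UMIs in erythroid-like cells. In MPP-like cells the thinned mean share was 16.4% with vehicle and 10.6% with IACS-70654, and in lymphoid-primed progenitor-like cells 40.7% and 26.7%. Cells with both an Irf8 and a Gfi1 UMI made 0.99% of thinned GMP-like cells with IACS-70654, 0.72% with vehicle and 0.37% in WT.

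In CD45+ cells Cebpb was called higher in immature and mature neutrophil-like cells, and Gfi1 lower in preNeu-like and immature neutrophil-like cells, of vehicle than of WT libraries. In Il1b-rich cells Cebpb differed by -0.05 (adjusted p = 0.892 by edgeR). In immature neutrophil-like cells Cebpb was 107 and 113 CPM in WT, 192 and 179 CPM in vehicle, and 255 and 251 CPM in IACS-70654 libraries, 3 separate levels. It rose with the tumor by 0.75 ± 0.05 (SE, adjusted p = 1.88e-25 by edgeR), and the further change with IACS-70654 was 0.45, under the size threshold, but 0.72 and called when scaled by total UMIs, and also called after thinning or with no upper limit on genes per cell. In the same cells the sum of 10 mature neutrophil markers was 7211 to 7835 CPM in WT, 11109 to 11445 CPM in vehicle and 16949.6 to 17373 CPM in IACS-70654 libraries, with 6 of 10 genes higher and 0 lower in vehicle than in WT libraries, and 2 higher and 2 lower with IACS-70654. The part of these markers in the Cebpb change was not tested. In mature neutrophil-like cells Cebpb was 664 and 649 CPM in WT, 1007 and 994 in vehicle and 821 and 872 CPM in IACS-70654 libraries, so the treated libraries lay between the other groups. The rise with the tumor was 0.61 ± 0.03 (adjusted p = 1.29e-43 by edgeR), and it was not called with total UMIs (0.46) or with no upper limit on genes per cell (0.39). Within single clusters Cebpb changed by 0.33 to 0.46 in immature and 0.21 to 0.27 in mature neutrophil-like cells, and no cluster gave a call.

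Gfi1 in preNeu-like cells was 39.4 and 42.4 CPM in WT, 25.0 and 23.9 CPM in vehicle and 41.3 and 40.0 CPM in IACS-70654 libraries. The treated libraries were at the WT level and the vehicle libraries below it. It fell with the tumor by 0.75 on the log2 scale (SE 0.10, adjusted p = 2.81e-07 by edgeR) and rose with IACS-70654 by 0.74 ± 0.10 (adjusted p = 3.33e-08 by edgeR). Both comparisons use the same vehicle libraries, so a low value there enters both. After thinning to 1000 UMIs per cell the changes were -0.15 and 0.20 and not called. Within 3 single clusters they ran from -0.96 to -0.34 and from 0.70 to 0.76, with a call in 1 of 3 in each comparison. In CD45+ GMP-like cells, where its level peaked, Gfi1 changed by 0.45 with IACS-70654 (adjusted p = 0.00148 by edgeR), under the size threshold. That change was called with no low-count filter, at Leiden resolution 2 and with no upper limit on genes per cell. The change in HSPC GMP-like cells had the opposite sign, at -0.29. In immature neutrophil-like cells Gfi1 was 15.7 and 14.4 CPM in WT, 9.56 and 8.48 CPM in vehicle and 7.498 and 8.79 CPM in IACS-70654 libraries, a change with the tumor of -0.75 ± 0.18 (adjusted p = 0.000373 by edgeR). It was not called without the WT replicate 1 library (-0.68) or without the vehicle replicate 2 library (-0.65), nor by DESeq2, after thinning or in the 1 cluster that could be tested (-0.48).

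These were the 4 calls of vehicle against WT among 57 tested pairs of member and class. The share of all genes called was 3.23% in preNeu-like, 7.51% in immature, 10.7% in mature and 1.79% in Il1b-rich neutrophil-like cells, 1.22% in GMP-like cells and 0.892% in monocyte-like cells. Cebpe in mature neutrophil-like cells changed by -0.47 (adjusted p = 1.39e-08 by edgeR) and Cebpd by 0.43, both under the size threshold. The Cebpe change was called in 4 alternatives, with total UMIs (-0.61), with doublets left out, after thinning and without the vehicle replicate 1 library. No member was called in monocyte-like cells, where Klf4 changed by 0.27 ± 0.06.

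Zeb2 rose with IACS-70654 in 4 neutrophil classes of the CD45+ cells, from preNeu-like to Il1b-rich cells. In the GMP-like precursors before them it changed by 0.40 ± 0.10 (adjusted p = 0.00732 by edgeR), under the size threshold. In preNeu-like cells Zeb2 was 16.7 and 21.6 CPM in WT, 21.9 and 18.2 CPM in vehicle and 39.6 and 40.9 CPM in IACS-70654 libraries, a rise of 1.02 ± 0.11 (SE, adjusted p = 7.69e-11 by edgeR). In immature neutrophil-like cells it was 21.3 and 20.3 CPM in WT, 20.1 and 18.7 CPM in vehicle and 71.6 and 77.3 CPM in IACS-70654 libraries, a rise of 1.95 ± 0.08 (adjusted p = 4.18e-50 by edgeR). The WT and vehicle libraries lay close together there, and the treated libraries stood far above both. In mature neutrophil-like cells Zeb2 was 188 and 194 CPM in WT, 194 and 201 CPM in vehicle and 433.5 and 435 CPM in IACS-70654 libraries, a rise of 1.14 ± 0.04 (adjusted p = 1.63e-65 by edgeR). In Il1b-rich cells it was 574 and 582 CPM, 563 and 570.2 CPM, and 816 and 934 CPM in the same order of groups, a rise of 0.63 ± 0.09 (adjusted p = 9.33e-08 by edgeR). In all 4 classes both treated libraries lay above all others.

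Zeb2 in monocyte-like cells went the other way, from 1669 and 1754 CPM with vehicle to 1451 and 1360 CPM with IACS-70654, a change of -0.28 ± 0.03 that was under the size threshold (adjusted p = 4.26e-07 by edgeR). With no upper limit on genes per cell the Zeb2 change was 0.12 in immature and 0.34 in mature neutrophil-like cells and not called, and within single clusters it was 0.54 to 1.44 (1 of 2 called) and 0.26 to 1.07 (2 of 3 called). The monocyte marker sum in mature neutrophil-like cells was 318 CPM with vehicle and 160 to 170 CPM with IACS-70654, with 2 of 9 tested genes higher and 2 lower. The sum of 10 macrophage markers went from 83.5–86.9 to 153–178.5 CPM, with 2 of 3 tested genes higher and Cd5l at 0 in all 6 libraries, while in immature neutrophil-like cells it was 9.8 CPM with vehicle and 12.4 to 13.7 CPM with IACS-70654. The monocyte sum in immature neutrophil-like cells went from 353–354 to 177–183 CPM, with 1 of 9 tested genes higher and 1 lower. Sums for the later neutrophil stages, where the Zeb2 level was higher, were also larger with IACS-70654 in these cells. That of 8 Il1b-rich neutrophil markers went from 217–224 to 336–347 CPM, with 4 of 8 genes higher and 0 lower, and the mature neutrophil sum from 11109–11445 to 16949.6–17373 CPM, with 2 of 10 higher and 2 lower. In preNeu-like cells, whose Zeb2 level was below that of GMP-like cells, the azurophil granule sum went from 2426–3004 to 5795–6039 CPM, with 5 of 8 genes higher and 0 lower. The part of these markers in the Zeb2 changes was not tested.

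Klf4 rose from very low levels in 3 of these neutrophil classes, and in preNeu-like cells it changed by 0.53 ± 0.37 (adjusted p = 0.307 by edgeR), without a call. In mature neutrophil-like cells it was 3.65 and 4.59 CPM in WT, 2.16 and 4.11 CPM in vehicle and 5.97 and 7.34 CPM in IACS-70654 libraries, a rise of 1.05 ± 0.25 (adjusted p = 0.000219 by edgeR). In immature neutrophil-like cells it was 0.418 and 2.84 CPM, 1.12 and 2.25 CPM, and 3.41 and 3.77 CPM in WT, vehicle and IACS-70654 libraries, a rise of 1.05 ± 0.31 (adjusted p = 0.00293 by edgeR). In Il1b-rich cells it was 17.9 and 7.66 CPM, 12.4 and 9.63 CPM, and 33.6 and 34.2 CPM, a rise of 1.61 ± 0.44 (adjusted p = 0.00648 by edgeR). The treated libraries were highest in each class, but the calls rest on few UMIs. None of the 3 was called by DESeq2 or after thinning, those in mature and immature cells also not with no upper limit on genes per cell, and that in immature cells also not after centering or at Leiden resolution 2. Without the vehicle replicate 1 library the values were 0.71 in mature, 0.68 in immature and 1.79 in Il1b-rich cells, and without the IACS-70654 replicate 2 library 0.88, 0.97 and 1.59, none of them called. In Il1b-rich cells the call was also lost without the vehicle replicate 2 library (1.44) or the IACS-70654 replicate 1 library (1.61). In the 1 cluster that could be tested the value was 1.83 in immature and 0.66 in mature neutrophil-like cells, neither called. The sum of Il1b-rich neutrophil markers, the class with the highest Klf4 level of these 3, was larger with IACS-70654 in immature neutrophil-like cells, as given for Zeb2. In mature neutrophil-like cells it went from 990.0–996 to 1292–1305 CPM, with 2 of 8 genes higher and 0 lower, and in the Il1b-rich cells themselves from 5731–5993 to 4568–4778 CPM, with 1 higher and 1 lower. The part of these markers in the Klf4 changes was not tested.

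In monocyte-like cells Irf8 was the only member called. It was 325 and 338.5 CPM in WT, 360.0 and 358 CPM in vehicle and 243.5 and 251.5 CPM in IACS-70654 libraries, so the treated libraries were below all others. Irf8 fell by 0.54 on the log2 scale (SE 0.05, adjusted p = 2.17e-09 by edgeR), and by 0.21 without a call after thinning. Within its 2 clusters the change was -0.52, which was called, and -0.49, which was not. Klf4 was 223 and 227 CPM with vehicle and 169 and 154 CPM with IACS-70654, a change of -0.48 ± 0.06 just under the size threshold (adjusted p = 5.08e-07 by edgeR). The monocyte marker sum of the class went from 7385–7594 to 5332–5580 CPM, with 4 of 10 genes lower, and the azurophil granule sum from 4893–5120 to 7311–7825 CPM, with 3 of 8 higher. Whether that shift of markers carries the lower Irf8 and Klf4 was not tested.

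The remaining calls were Gfi1 in preNeu-like cells, given above, and Cebpa in mature neutrophil-like cells, at 14.2 and 15.5 CPM with vehicle and 11.3 and 9.87 CPM with IACS-70654. Cebpa fell by 0.50 on the log2 scale (SE 0.15, adjusted p = 0.00381 by edgeR), was called in 5 of 16 alternatives and had the opposite sign, 0.057, after thinning, and within 2 clusters it was -3.22 and -0.24 and not called. It was not called without the vehicle replicate 2 library (-0.43) or the IACS-70654 replicate 2 library (-0.40). In total 10 of 57 tested pairs were called under IACS-70654, and 6 without the IACS-70654 replicate 2 library. The share of all genes called was 5.01% in GMP-like, 10.1% in preNeu-like, 15.7% in immature, 19.9% in mature and 9.14% in Il1b-rich neutrophil-like cells and 5.79% in monocyte-like cells, so in mature neutrophil-like cells the 3 called members stood among many genes. In preNeu-like cells, where Gfi1 rose, the azurophil granule sum went from 2426–3004 to 5795–6039 CPM, with 5 of 8 genes higher, and the part of this in the Gfi1 change was not tested.

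Neutrophil libraries differed in composition, and TMM scaling moved the zero of a comparison. Against total UMIs it shifted log2 changes under IACS-70654 by -0.27 in immature, -0.28 in mature and -0.23 in preNeu-like cells, and those with the tumor by 0.25, 0.14 and 0.14. No called member turned sign between these scalings, although 5, 2 and 4 uncalled members did under IACS-70654, such as Cebpb in mature neutrophil-like cells, from -0.24 to 0.04. In the same cells Runx1 changed with IACS-70654 by 0.37 (adjusted p = 1.92e-14 by edgeR), under the size threshold. With total UMIs its change was 0.65 and called, and it was also called after thinning. Spi1 there changed by -0.36 (adjusted p = 1.16e-22 by edgeR), or by -0.079 with total UMIs, and was called only after thinning.

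**Figure D2:**
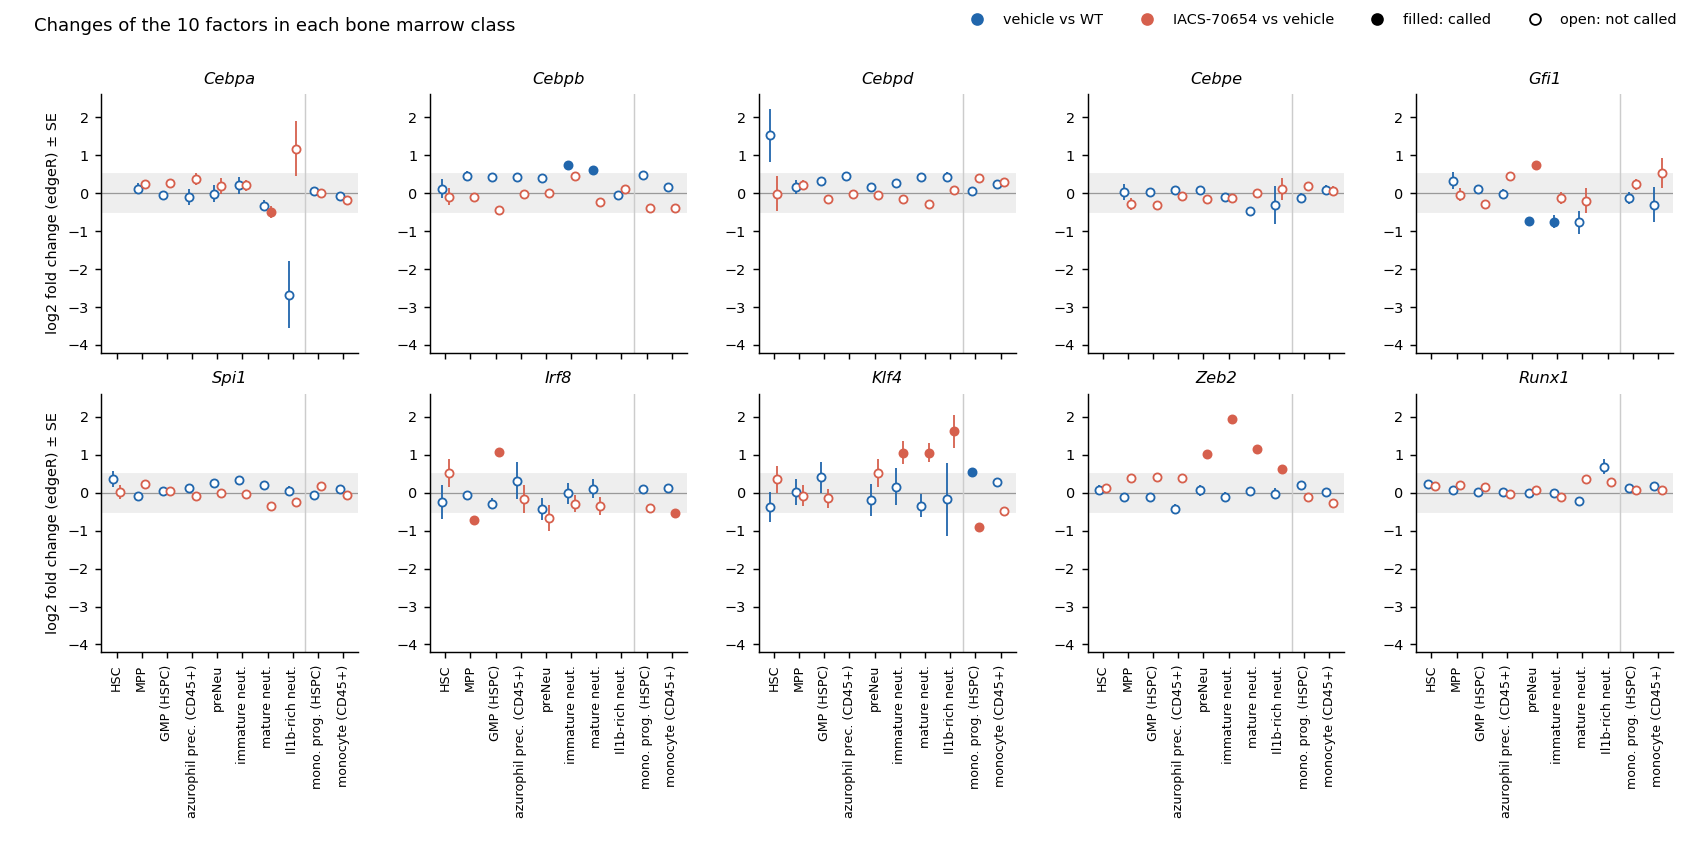
Log2 change of each member (points, with SE bars) with the tumor and with IACS-70654 in the 10 BM classes, with filled points for called values. Zeb2 lies above 0 in all 4 neutrophil classes from preNeu-like to Il1b-rich cells and below 0 in monocyte-like cells under IACS-70654.

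**Figure D3:**
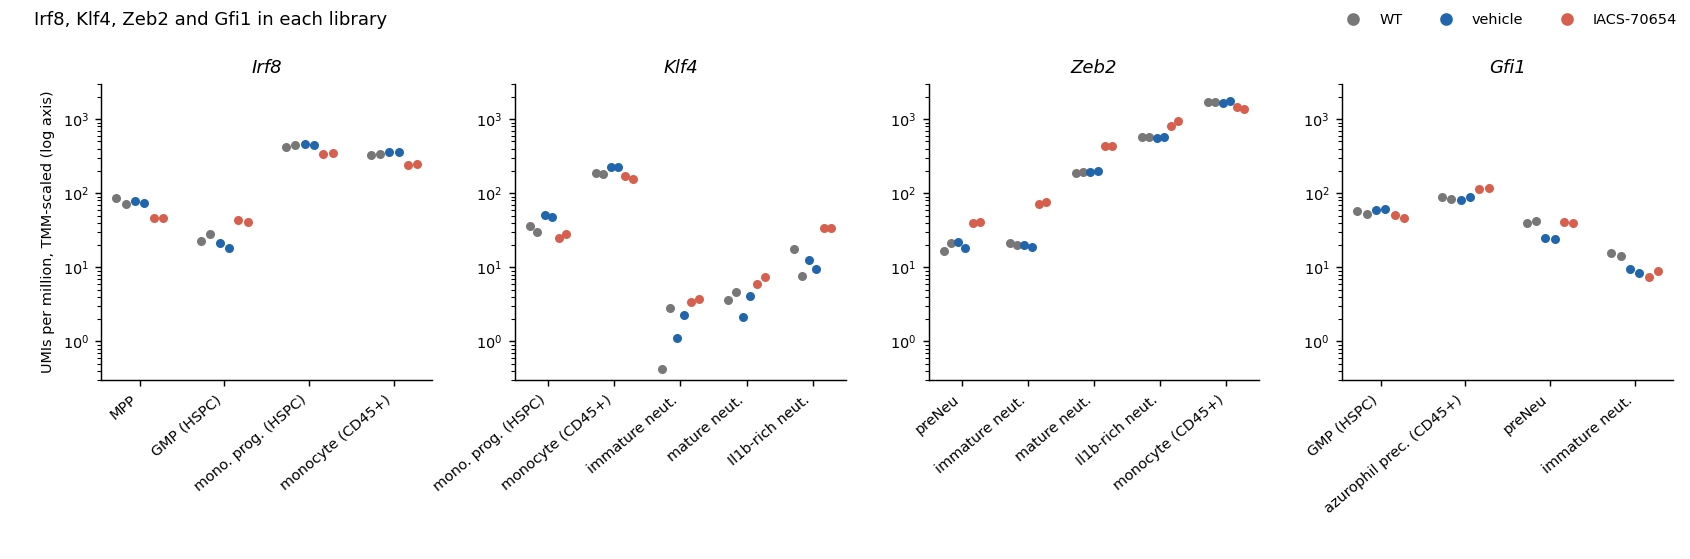
TMM-scaled CPM (log scale) of Irf8, Klf4, Zeb2 and Gfi1 in each of the 6 libraries of a sort, by group. In immature neutrophil-like cells the 2 IACS-70654 libraries have 71.6 and 77.3 CPM of Zeb2 and the other 4 lie between 18.7 and 21.3 CPM.

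Whether the drug acted unlike on the granulocyte and the monocyte side was tested as an interaction in edgeR with library as a term, comparing GMP-like with monocyte progenitor-like cells in HSPCs and mature neutrophil-like with monocyte-like cells in the CD45+ sort. Of all genes, 2.48% were called in HSPCs (313 of 12596) and 10.0% in CD45+ cells (1230 of 12284). Of the members 4 were called in HSPCs. Relative to monocyte progenitor-like cells, the change in GMP-like cells was higher for Irf8 by 1.49 ± 0.09 (adjusted p = 1.28e-26) and for Zeb2 by 0.53 ± 0.04 (6.18e-21), and lower for Cebpd, at -0.55 ± 0.08 (3.56e-08), and for Cebpe, at -0.51 ± 0.11 (0.000275). In CD45+ cells 3 were called. The change in mature neutrophil-like cells exceeded that in monocyte-like cells for Klf4 by 1.53 ± 0.25 (adjusted p = 1.19e-06) and for Zeb2 by 1.41 ± 0.05 (1.73e-34), and was lower for Cebpd, at -0.59 ± 0.06 (6.08e-13).

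Zeb2 and Cebpd were thus called in the same direction in both sorts. Scaling by total UMIs was not run for these differences. Under it the Cebpd change with IACS-70654 in mature neutrophil-like cells was -0.015, against -0.30 with TMM factors. Without the vehicle replicate 1 library of each sort 4 of the 7 were called, the HSPC values of Cebpd, Cebpe and Zeb2 then being -0.41, -0.37 and 0.47, and Cebpe was not called without the IACS-70654 replicate 1 library either (-0.33). Spi1 (-0.31, adjusted p = 1.80e-05) and Runx1 (0.29, 0.000105) passed in edgeR on p only in the CD45+ sort. Klf4 in HSPCs had a difference of 0.77 with an adjusted p of 0.0441 by edgeR, which missed the threshold.

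**Figure D4:**
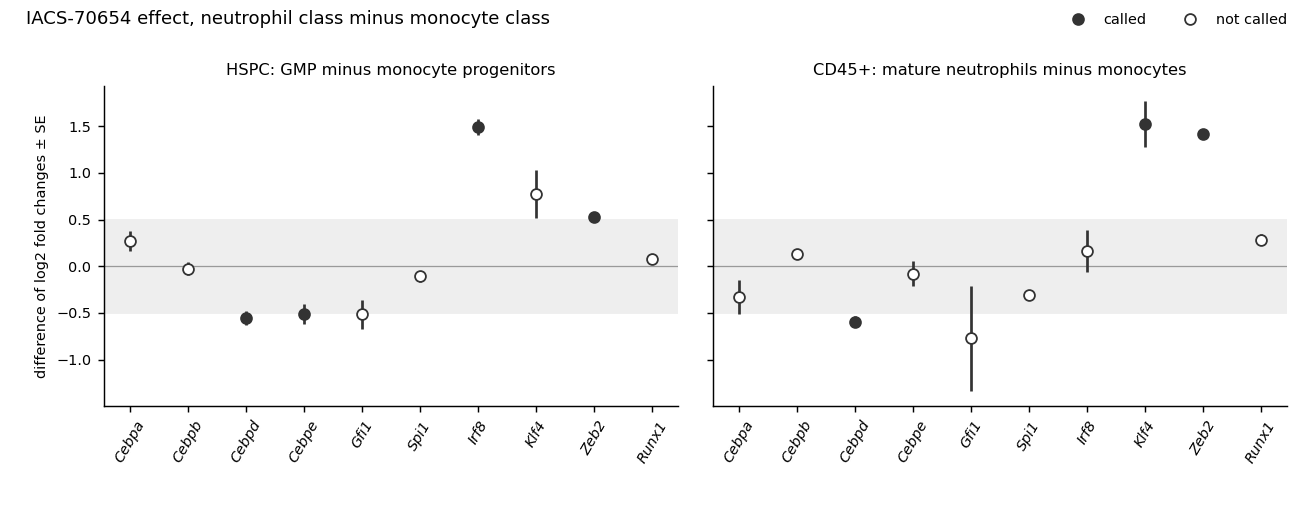
Difference of the log2 change under IACS-70654 between the granulocyte and the monocyte class (points, with SE bars) for each member in both sorts, with filled points for called values. Irf8 in HSPCs (1.49), Klf4 (1.53) and Zeb2 (1.41) in CD45+ cells lie highest, and Cebpd lies below 0 in both sorts.

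In tumors Klf4 differed between the libraries of tumor-associated neutrophil (TAN)-like cells. There is 1 library per condition, so no test was made, 95% intervals cover counting error only, and a ratio was counted past 2-fold with at least 10 UMIs over both libraries. Klf4 had 38 UMIs or 61.7 CPM (43.7 to 84.7) in 470 TAN-like cells with vehicle, 84 UMIs or 222 CPM (177 to 275) in 246 cells with IACS-70654, 46 UMIs or 57.3 CPM (42.0 to 76.5) in 555 cells with anti–PD-1 and 83 UMIs or 204.8 CPM (163 to 254) in 309 cells with the combination. Both libraries with IACS-70654 were higher than both without it. On the log2 scale the difference from vehicle was 1.85 (1.28 to 2.44) for IACS-70654 and 1.73 (1.16 to 2.32) for the combination.

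The macrophage marker sum in TAN-like cells was 4533 CPM with vehicle, 3841 with IACS-70654, 2822 with anti–PD-1 and 3619 with the combination, with Cd5l at 0 in all 4 libraries. The monocyte marker sum was 651 CPM with vehicle, 770 with IACS-70654, 626 with anti–PD-1 and 846 with the combination, in the same order between libraries with and without IACS-70654 as Klf4. The mature neutrophil marker sum was 18280 CPM with vehicle, 13521 with IACS-70654, 19917 with anti–PD-1 and 11852 with the combination. The part of these markers in the Klf4 difference was not tested. Gfi1 had 0 or 1 UMI in TAN-like cells of each library, and the 0 UMIs with vehicle allow a level of up to 5.99 CPM by the exact interval.

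Of the other members, Cebpa and Gfi1 had under 10 UMIs over the vehicle and IACS-70654 libraries of TAN-like cells, and the rest stayed within 2-fold between these libraries. Cebpb was 4519 CPM with vehicle, 4878 with IACS-70654, 4676 with anti–PD-1 and 5267 with the combination, and Spi1 was 744, 744, 809 and 735 CPM in the same order. Zeb2, which rose in BM neutrophil-like cells, was 331, 328, 279 and 333 CPM. Runx1 was 468 CPM with vehicle and 662 CPM with IACS-70654, and the log2 of their ratio was 0.50 (0.25 to 0.75).

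Cebpe in tumor monocyte-like cells was 13.4 CPM with vehicle, 4.19 with IACS-70654, 7.00 with anti–PD-1 and 1.498 with the combination, log2 ratios of -1.67 (-2.95 to -0.26) for IACS-70654 and -3.16 (-4.85 to -1.50) for the combination. After thinning to 1000 UMIs per cell the value for IACS-70654 was -0.12, not past 2-fold. The value for the combination was past 2-fold in 6 of 6 alternatives, from -3.17 to -2.41. In that class the macrophage marker sum was 21604 CPM with vehicle and 32750 CPM with IACS-70654 and the monocyte marker sum 8324 and 6205 CPM, and their part in the Cebpe difference was not tested. Their Zeb2 was 690, 512, 649 and 526 CPM and their Irf8 179, 204, 210 and 221 CPM in the same order. In tumor macrophage-like cells Cebpb was 859 CPM with vehicle, 1320 with IACS-70654, 823 with anti–PD-1 and 1466 with the combination, and Klf4 286, 441, 283 and 503 CPM, all within 2-fold.

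Pairs of member and class were counted in TAN-like, monocyte-like and macrophage-like cells only. Past 2-fold were 2 of the counted member and class pairs with IACS-70654 (Klf4 in TAN-like and Cebpe in monocyte-like cells), 3 with the combination (both of these and Cebpe in macrophage-like cells, -1.01, -2.28 to 0.32, an interval that includes 0, and past 2-fold in 2 of 6 alternatives) and 2 with anti–PD-1 (Cebpa at -1.38, -3.56 to 0.52, and Irf8 at -1.06, -3.02 to 0.73, both in TAN-like cells with an interval that includes 0). The share of all counted genes past 2-fold was 16% in TAN-like (1163 of 7261), 15.5% in monocyte-like and 9.17% in macrophage-like cells with IACS-70654, 9.02%, 8.28% and 5.13% with anti–PD-1, and 16%, 15.7% and 9.16% with the combination. The 3 comparisons share the vehicle library.

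**Figure D5:**
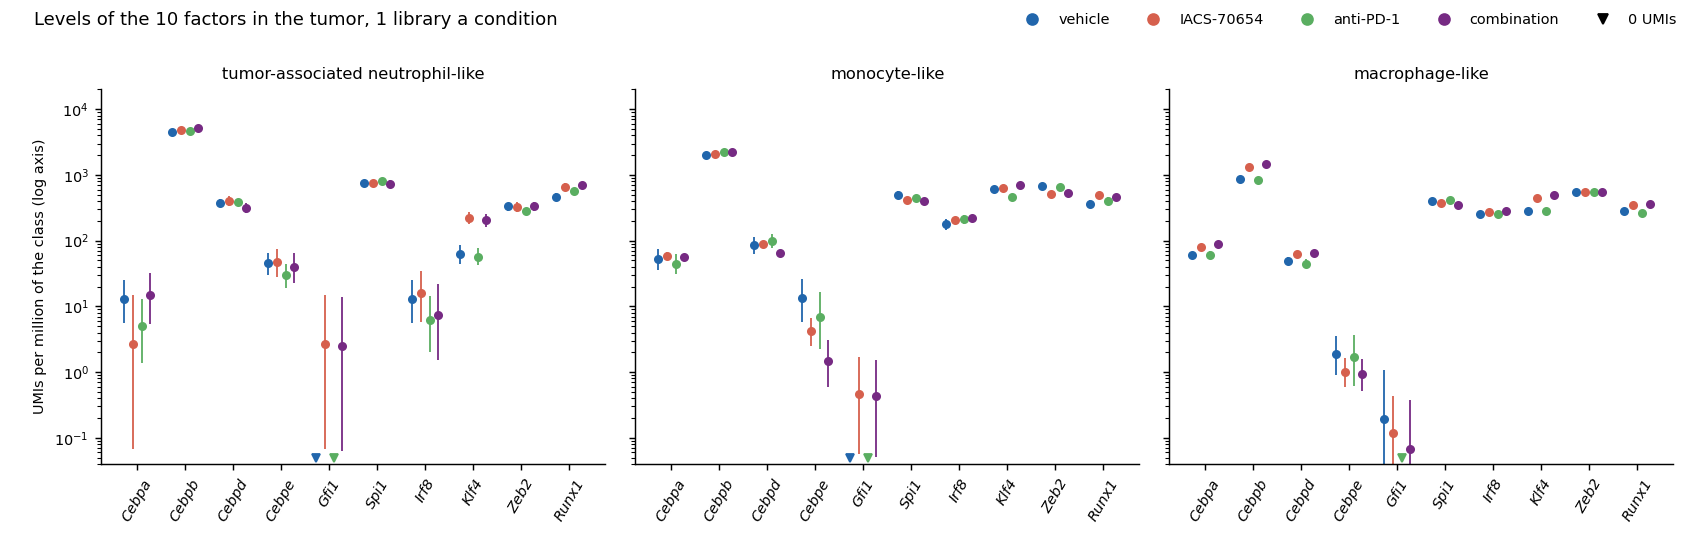
CPM (log scale) of the members in TAN-like, monocyte-like and macrophage-like cells of the 4 tumor libraries, with exact 95% Poisson intervals that cover counting error only. Klf4 in TAN-like cells lies at 222 and 204.8 CPM in the libraries with IACS-70654 and at 61.7 and 57.3 CPM in those without.

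Other genes of the same network were counted from lists. The shares of all genes called, against which these counts stand, were 0.520% to 1.43% for vehicle against WT and 1.03% to 6.91% for IACS-70654 over the HSPC classes, and 0.892% to 10.7% and 5.01% to 19.9% over the CD45+ classes. Of 18 other monocyte, macrophage and dendritic cell factors, IACS-70654 gave 9 calls up and 0 down among 43 pairs of gene and class in HSPCs, with Klf6, an early response factor, as the smallest p (1.03 ± 0.11 in GMP-like, 0.70 ± 0.08 in monocyte progenitor-like and 0.70 ± 0.10 in MPP-like cells) and Irf7 (1.66 ± 0.29 in monocyte progenitor-like cells) and Id2, an inhibitor of E proteins, among the others (1.12 ± 0.23 in MPP-like cells). In CD45+ cells the same list had 4 calls up and 9 down among 67 pairs. Id2 rose by 1.02 ± 0.05 in mature and 0.60 ± 0.04 in immature neutrophil-like cells, and Tcf4, a factor of plasmacytoid dendritic cells, fell by 0.78 on the log2 scale in immature cells. With the tumor the list had 12 calls up and 1 down in CD45+ cells, led by Irf7 (0.64 ± 0.08) and Egr1 (0.67 ± 0.09) in mature neutrophil-like cells, and 0 up and 2 down in HSPCs, Klf6 in MPP-like cells (-0.62 ± 0.13) and Egr1 in GMP-like cells (-0.59 ± 0.13).

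Of 6 receptor genes known as targets of these factors, vehicle against WT gave 2 calls up and 0 down among 22 pairs in HSPCs and 3 up and 2 down among 36 in CD45+ cells. All of those up were Csf2rb, the shared chain of the GM-CSF, IL-3 and IL-5 receptors, by 0.76 ± 0.13 in MPP-like, 0.53 ± 0.12 in HSPC GMP-like, 0.86 ± 0.08 in preNeu-like, 1.12 ± 0.07 in immature and 0.82 ± 0.04 in mature neutrophil-like cells. With IACS-70654 the receptors had 0 up and 2 down in HSPCs, both Csf3r, the G-CSF receptor, in GMP-like (-0.59 ± 0.06) and MPP-like cells (-0.51 ± 0.08), and 1 up and 2 down in CD45+ cells, where Csf3r fell by 0.62 on the log2 scale in mature neutrophil-like cells, Itgam, the CD11b integrin chain, changed by -0.51 ± 0.09 in GMP-like cells and Csf1r, the M-CSF receptor, rose by 0.53 ± 0.17 in immature neutrophil-like cells.

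Of 15 stem and progenitor factors, IACS-70654 gave 3 calls up and 4 down among 58 pairs in HSPCs, with Mecom lower in MPP-like (-0.84 ± 0.05), Lmo2 lower in GMP-like (-0.56 ± 0.04) and Meis1 higher in monocyte progenitor-like cells (0.72 ± 0.05), and 3 up and 6 down among 60 in CD45+ cells, with Erg (-0.55 ± 0.05 in immature) and Lyl1 (0.98 ± 0.10 in mature) leading. Vehicle against WT gave 0 up and 4 down there, with Erg at -1.15 ± 0.11 and Lmo2 at -0.82 ± 0.10 in mature cells, and no call in HSPCs. Of 15 regulators and partners of the members, Crebbp and Ep300 among them, IACS-70654 gave 3 up and 0 down among 52 pairs in HSPCs, Hes1 in MPP-like cells (1.55 ± 0.28) and Nab2 in monocyte progenitor-like (1.99 ± 0.46) and MPP-like cells (1.25 ± 0.36), and 1 up and 2 down among 73 in CD45+ cells, with Ets1 at -0.81 ± 0.11 in mature and Trib1, which promotes C/EBPα degradation, at -0.61 ± 0.08 in preNeu-like cells. Vehicle against WT gave 0 calls in HSPCs and 1 up (Stat5a) and 1 down (Ets1) in CD45+ cells.

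The 3 other C/EBP family members had 0 calls in HSPCs and, under IACS-70654, 0 up and 3 down among 18 pairs in CD45+ cells, Ddit3 in mature (-1.03 ± 0.10) and Il1b-rich (-1.36 ± 0.21) and Cebpz in immature neutrophil-like cells (-0.53 ± 0.07). Of the other Runx family members, Runx3 rose with IACS-70654 by 0.83 ± 0.24 in immature and 0.90 ± 0.30 in mature neutrophil-like cells and fell with the tumor by 1.48 on the log2 scale in immature cells, the only calls of that list among 17 pairs. Of 5 factors of the red cell and platelet branches, Nfe2 fell with IACS-70654 in mature (-0.69 ± 0.05) and immature (-0.58 ± 0.05) neutrophil-like cells, and Zfpm1 rose in HSPC monocyte progenitor-like (0.73 ± 0.18) and GMP-like cells (0.51 ± 0.14) and was lower with the tumor in GMP-like cells (-1.11 ± 0.20). The medians of the lists ran from -0.69 to 0.75 over classes and comparisons, against -0.02 to 0.04 over all genes tested. Both ends of the first range come from classes in which 1 gene of the list was tested.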

How the data were processed

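The authors aligned reads of Chromium 3′ v3.1 libraries to mm10 with Cell Ranger (7.1.0 for tumors, 7.2.0 for BM) and deposited raw UMI count values per gene and cell. Kept cells had over 200 genes, below 6000, and a mitochondrial share of UMIs of at most 10%. For each sort, 2000 variable genes without the members and lists, 30 principal components and 20 neighbors entered Leiden clustering at resolution 1 (0.8 in a second stage) with scanpy 1.11.5 and leidenalg 0.10.2, and clusters were named from markers without integration or doublet removal. Doublets were left out in an alternative. Counts were summed per class and library (20 cells or more) and tested over 6 libraries with edgeR 4.0.16 (filterByExpr, TMM, quasi-likelihood) in R 4.3.3, with DESeq2 1.42.0 as an alternative. The scripts were tested on simulated data. All 10 members were named, and of each list at most 3 genes per sort and comparison, by the smallest adjusted p among calls, and 2 genes most like each member in level, of which 1 is not reported here. Members and lists were chosen with earlier results of these data known. The WT libraries are those labeled as controls. BM treatment lasted 7 days in the series record and 6 in the study's text. The neoR transgene had 0 UMIs. Between replicates the chi-square per degree of freedom was 1.09 to 1.82 against independent sampling of UMIs. UMIs come grouped in cells, so these values do not show a difference beyond the sampling of cells. Tumor ratios have exact intervals.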

Additional observations from a re-analysis of the deposited data

Results flagged for a closer look

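The differences below concern members whose change under IACS-70654 was not alike on the granulocyte and the monocyte side, by edgeR's quasi-likelihood test of the interaction over the 6 libraries of a sort. In HSPCs, GMP-like against monocyte progenitor-like cells, the difference on the log2 scale was 1.49 for Irf8, 0.53 for Zeb2, -0.55 for Cebpd and -0.51 for Cebpe. In CD45+ cells, mature neutrophil-like against monocyte-like cells, it was 1.53 for Klf4, 1.41 for Zeb2 and -0.59 for Cebpd. Over 13 alternatives, Irf8 in HSPCs and Zeb2 and Cebpd in CD45+ cells were called in all 13, Klf4 in 12, Cebpd and Zeb2 in HSPCs in 11 each and Cebpe in 7. The sizes moved, from 0.85 to 1.89 for Irf8 in HSPCs and from 0.58 to 1.45 for Zeb2 in CD45+ cells. Scaling by total UMIs was not among these alternatives.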

How the results depend on the processing

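With the tumor, 1 member and class pair was called in HSPCs, and this became 2 with total UMIs, with doublets left out, with thinned cells and with no upper limit on genes per cell, 5 with libraries centered before clustering, and 0 to 2 when 1 library was left out, none of the pairs called after thinning or centering being the original one. The 10 pairs called in CD45+ cells under IACS-70654 became 6 with DESeq2 and 6 to 10 when 1 library was left out, the 3 in HSPCs stayed at 3 to 3, the 4 of the tumor in CD45+ cells at 4 to 5, and the 7 differences between granulocyte and monocyte classes at 4 to 7. After thinning, only the Zeb2 pairs of those 10 stayed called. The pairs with the tumor in CD45+ cells changed although their number hardly did. Gfi1 in immature neutrophil-like cells lost its call without the WT replicate 1 or the vehicle replicate 2 library, while other pairs gained one. With no upper limit on genes per cell, Zeb2 and Klf4 in immature and mature neutrophil-like cells and Cebpa lost their calls, and other pairs gained one. In tumors the 2 values past 2-fold with IACS-70654 became 4 after centering and 1 after thinning, and the 2 with anti–PD-1 became 0 after thinning. The Irf8 share of GMP-like cells differed by 5.89 points between IACS-70654 and vehicle after thinning and by 12.0 points before it. Opposite signs were found for Cebpa in mature neutrophil-like cells (0.057, thinned), Cebpe in the HSPC difference (0.029, centered) and Irf8 in TAN-like cells with anti–PD-1 (0.043, thinned), and the cause was not tested. Of the other values of single members over the alternatives, 363 were kept, 52 lost their call and 1 tumor ratio left its interval. Kept means the same direction and call in BM. For a tumor ratio it means a value inside the interval of the main ratio, even if no longer past 2-fold. With the replicate number as a block, the calls numbered 1 and 3 in HSPCs and 4 and 10 in CD45+ cells, as without it, and the correlations of same-numbered deviations were -0.028 to 0.044, so the numbers do not pair the libraries.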

Other observations

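Outside the granulocyte and monocyte path, Irf8 had its highest level in plasmacytoid dendritic cell-like cells of the CD45+ sort, with a mean of 1680 CPM, 1886 and 1901 CPM with vehicle and 1266 and 1346 CPM with IACS-70654. Cebpe was 599 CPM on average in eosinophil progenitor-like cells, above each neutrophil class except the preNeu-like one. Runx1 was highest in basophil progenitor-like cells of the HSPC sort (1938 CPM), and Zeb2 was 1176 CPM in megakaryocyte progenitor-like cells. In those basophil progenitor-like cells Cebpa was 78.7 to 85.9 CPM with vehicle and 32.4 to 38.6 CPM with IACS-70654, and Cebpb 86.4 to 101 CPM and 35.7 to 43.2 CPM. In B cell-like cells of the CD45+ sort Zeb2 was 1077 to 1298 CPM with vehicle and 443 to 464 CPM with IACS-70654. In tumor dendritic cell-like cells Cebpb was 334 CPM with vehicle, 800 CPM with IACS-70654, 329 CPM with anti–PD-1 and 925 CPM with the combination, and Klf4 236, 528, 324 and 580 CPM. This dendritic class had 31 cells with vehicle and was not part of the 2-fold counts above. These classes were not among those tested.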
